A study of Mus musculus with 12 samples.

Results

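The 10 genes described here encode 3 receptors for fibroblast growth factors (Fgfr1, Fgfr2 and Fgfr3), 3 transcription factors of the ETS family (Etv1, Etv4 and Etv5) and 4 feedback inhibitors of the ERK cascade (Spry1, Spry2, Spry4 and Dusp6). They were chosen by name, as the rows whose mouse Ensembl identifier carries one of these symbols, and are 10 of the 55487 gene identifiers in the tables. The names, and the gene lists used below, were chosen with earlier results of these data known. The shares of all genes set beside their counts are therefore given for scale and are no independent test of the set or lists. All 10 were among the 16798 genes that passed the filter on low counts. The measurements are RNA-seq of laser-microdissected ventricular zone, the progenitor layer beside the ventricle of the embryonic dorsal cortex, in 12 mouse libraries, 3 in each of 4 groups. The groups were E16.5 p18mKO2+, E16.5 p18mKO2-, E13.5 p18mKO2+ and E13.5 p18mKO2-. The p18mKO2+ genotype is labelled as over-expression of p18 with the fluorescent protein mKO2, from a conditional cassette in ROSA26 that Cre recombination opens, and the p18mKO2- genotype is labelled normal. p18 is a cyclin-dependent kinase inhibitor of the INK4 family, encoded by Cdkn2c. Tamoxifen was given in all 4 groups. The sources used here name neither the Cre driver nor the origin of each library (1 embryo or a pool), so p-values reflect variation among these 12 libraries, some of which may be technical. The study's question was what part cyclin-dependent kinase inhibitors have in the passage of cortical progenitors from making neurons to making glia.

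Fibroblast growth factors bind receptor tyrosine kinases at the cell surface together with heparan sulphate, and the activated receptor passes its signal through adaptor proteins and RAS to the kinase ERK. In many tissues of the embryo, ERK signalling raises transcription of Etv4 and Etv5 and of the inhibitors Spry1, Spry2, Spry4 and Dusp6, so that these genes are widely read as a response to FGF. In the cortical ventricular zone all 3 receptors are known to be made by radial glia, FGF signalling helps to keep radial glia as progenitors, and Fgf8 from the rostral midline patterns cortical areas. Etv1 is also a well-known gene of layer 5 projection neurons, so its transcripts need not come from progenitors.

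The estimated counts of a library summed to between 17101971 and 21837088. Cdkn2c, the gene targeted by the design, was not called higher in p18mKO2+ at either stage. Its log2 change was 0.32 ± 0.26 at E16.5 (SE, edgeR's quasi-likelihood test with Benjamini-Hochberg adjustment, adjusted p = 1) and 0.14 ± 0.26 at E13.5 (edgeR, adjusted p = 0.798). On the deposited TPM scale (transcripts scaled per length and per library) it did not overlap between the groups, at 32.1 to 43.55 in p18mKO2+ and 13.65 to 28.66 in p18mKO2- at E16.5, and at 27.67 to 32.63 and 16.05 to 26.54 at E13.5, where the typical gene was also higher in TPM than in CPM in p18mKO2+, by 0.27 and 0.17 on the log2 scale. The groups are used as labelled. The replicate 3 libraries of E16.5 p18mKO2+ and E13.5 p18mKO2+ held transcripts of both sexes (Xist and Y-linked genes). At E13.5 the other 2 p18mKO2+ libraries had summed Y-linked levels of 0 and 178 CPM, with Xist at 1960 and 3.57 CPM, against Y-linked levels of 0.109 to 0.415 CPM and Xist at 1900 to 1940 CPM in p18mKO2-, so the sexes were not balanced there. At E16.5 Y-linked levels were 135 and 182 CPM in replicates 1 and 2 of p18mKO2+, with Xist at 9.82 and 0.347 CPM. In E16.5 p18mKO2- they were 0.0614, 168 and 0.232 CPM, with Xist at 1720, 3.41 and 1540 CPM. The sexes were thus not balanced at E16.5 either, nor between stages within a genotype. The ribosomal RNA gene CT010467.1 was at 26200 to 65800 CPM in p18mKO2+ and 52400 to 88000 CPM in p18mKO2- at E13.5, where the groups overlapped. At E16.5 it was at 16600 to 39600 and 70600 to 152000 CPM in the same order, without overlap. The replicate 3 library of E16.5 p18mKO2- stood apart from its group. There the summed level of 12 neuron markers was 11100 CPM (counts scaled to a common library size by TMM), against 8180 and 8470 CPM in the other two of the group, and the summed level of 12 markers of dividing cells was 948 CPM, against 1500 and 1550 CPM. Radial glia markers were present in every library, all 11 of 11, with sums between 1860 and 2920 CPM, but so were all 12 neuron markers. A tissue library is a sum over its cells, so fewer cells of a type and less RNA per cell cannot be told apart in any value below.

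Fgfr1 and Fgfr2 were among the 3 most abundant of the 10 genes in every group. The mean shares of Fgfr1 and Fgfr3 differed between stages and between the E13.5 genotypes, and were close between the E16.5 genotypes. No test was made of the shares. On the deposited TPM scale, which is per transcript length and lets genes be compared, Fgfr1, Fgfr2 and Fgfr3 together came to 167 ± 29.6 in E16.5 p18mKO2+, 126 ± 42.4 in E16.5 p18mKO2-, 183 ± 13.6 in E13.5 p18mKO2+ and 308 ± 42.4 in E13.5 p18mKO2- (SD, n = 3 each). Fgfr3 supplied 16.8 ± 3.82% of that sum in E16.5 p18mKO2+ and 17.6 ± 12.8% in E16.5 p18mKO2-, against 26.2 ± 5.7% in E13.5 p18mKO2+ and 42.8 ± 6.67% in E13.5 p18mKO2-. The share of Fgfr1 was 43.8 ± 1.61%, 43.3 ± 2.95%, 32.5 ± 0.37% and 19.0 ± 1.62% in the same order of groups. That of Fgfr2 was 39.5 ± 3.88%, 39.1 ± 9.89%, 41.3 ± 5.76% and 38.2 ± 5.48%. E13.5 p18mKO2- was thus the 1 group in which Fgfr3 had the highest mean TPM of the 3 receptors, at 134 ± 40.2, with Fgfr2 at 116 ± 2.63 and Fgfr1 at 58.1 ± 5.15 TPM. The higher Fgfr3 mean rested on replicate 1, at 179.91 TPM against 113.81 TPM for Fgfr2. In replicates 2 and 3 Fgfr3 was the lower, at 115.61 and 105.99 TPM against 119.03 and 115.81 TPM.

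Among the ETS factors, Etv5 had the highest mean TPM in every group, at 36.1 ± 4.53 in E16.5 p18mKO2+, 29.5 ± 2.06 in E16.5 p18mKO2-, 22.2 ± 5.32 in E13.5 p18mKO2+ and 8.08 ± 3.38 in E13.5 p18mKO2- (SD, n = 3 each). It made up 53.1, 58.1, 54.3 and 50.8% of the summed TPM of the 3 factors in that order of groups. The sum itself was 68.1 ± 8.84, 51.2 ± 8.07, 40.9 ± 9.66 and 15.5 ± 2.9 TPM. Among the feedback inhibitors, Spry2 and Dusp6 had the highest means, at 26.8 ± 1.61 and 22.4 ± 2.72 TPM in E16.5 p18mKO2+. Spry4 was the lowest of the 10 genes in every group, with its highest mean, 2.11 ± 0.0854 TPM, in E16.5 p18mKO2+ and its lowest, 0.953 ± 0.461 TPM, in E13.5 p18mKO2-. Its counts per library lay between 29 and 139.

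**Figure D1:**
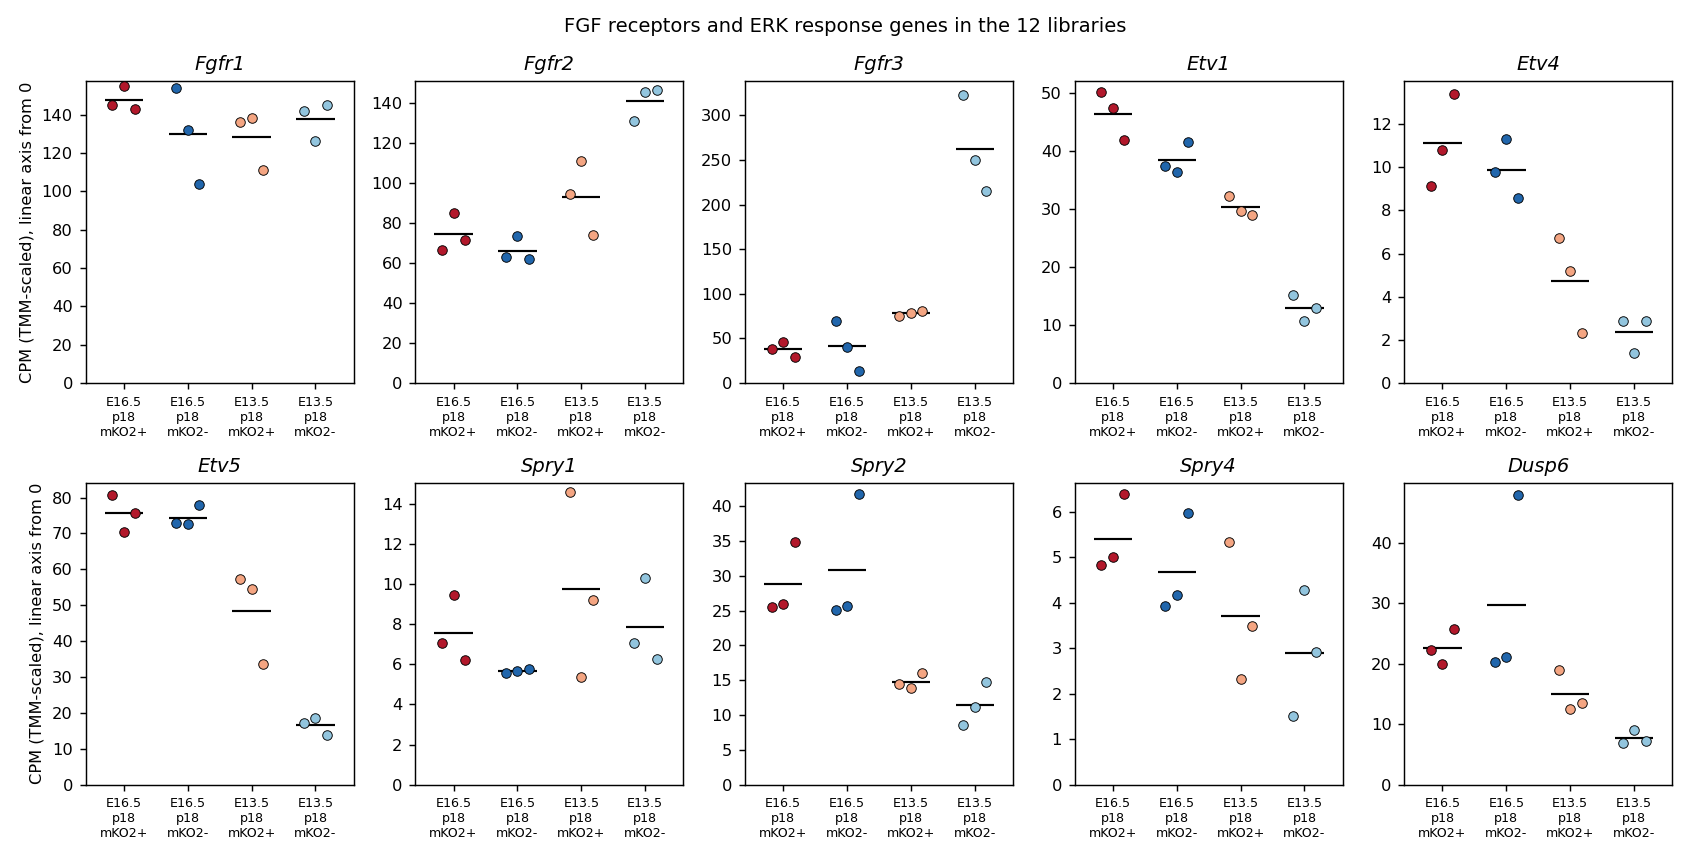
TMM-scaled CPM (linear axis from 0) of the 10 genes in each of the 12 libraries, with replicates 1 to 3 as points (left to right) and the mean of each group as a line. Fgfr3 was at no more than 80.5 CPM in any library of the first 3 groups, against 215 to 323 CPM in E13.5 p18mKO2-, and Etv5 was at 33.7 CPM or more in those groups, against 13.9 to 18.6 CPM in E13.5 p18mKO2-.

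Promoter sequence was available for the 3 genes with the largest called differences at E13.5, Etv5 and Etv1, which were higher in p18mKO2+, and Fgfr3, which was lower. The stretches below come from RefSeq windows on GRCm38.p6, 250 bases before and 50 after an annotated start, and are limited to the bases before that start and outside GENCODE exons. They are printed 5′ to 3′ on the gene's own strand, from chr16:22439720-22439820 (minus), chr12:38779832-38780081 (plus) and chr5:33721474-33721673 (plus), and no letters are in capitals because no searched motif fell in them.
Etv5: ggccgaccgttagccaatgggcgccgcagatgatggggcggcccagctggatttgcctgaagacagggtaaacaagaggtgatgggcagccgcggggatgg
Etv1: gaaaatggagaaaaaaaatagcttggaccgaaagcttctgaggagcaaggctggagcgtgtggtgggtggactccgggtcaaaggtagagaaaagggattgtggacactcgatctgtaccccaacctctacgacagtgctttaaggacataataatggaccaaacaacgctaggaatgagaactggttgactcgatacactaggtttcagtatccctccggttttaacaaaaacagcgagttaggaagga
Fgfr3: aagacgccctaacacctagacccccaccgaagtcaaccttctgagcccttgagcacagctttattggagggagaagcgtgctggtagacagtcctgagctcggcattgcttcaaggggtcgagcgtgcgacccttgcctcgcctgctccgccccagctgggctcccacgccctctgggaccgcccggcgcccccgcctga
Both strands of all 10 windows found for 7 of the 10 genes (none for Fgfr1, Etv4 and Spry4 in the table used here) were searched for an ETS motif, CCGGAAG, and an AP-1 motif, TGANTCA. Neither was found in any of the 10 windows, while 8.86% and 7.81% of the 32851 windows of that length in the table held one. The median GC content was 61.4% over the 10 windows and 52.7% over all windows.

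The first comparison asked how the receptors and response genes differed with p18mKO2 status at E13.5, when the dorsal cortex makes neurons. Etv5 and Etv1 were higher in p18mKO2+, Fgfr3 and Fgfr2 were lower, and the other 6 genes did not pass the test. Of the 10 genes, 4 were called (2 higher and 2 lower), where 10.8% of all 16798 genes tested were called, 7.29% higher and 3.49% lower. CPM did not overlap between the groups for 5 of the 10, the 4 called genes and Dusp6, against 30.7% of all genes. The median size of the log2 change, without its sign, was 0.78 over the 10 genes and 0.35 over all genes.

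Etv5 (ENSMUSG00000013089, GRCm38 chromosome 16, 22381309 to 22439719, minus strand) encodes an ETS activator downstream of FGF. It stood at 57.2, 54.4 and 33.7 CPM in the E13.5 p18mKO2+ libraries, against 17.2, 18.6 and 13.9 CPM in p18mKO2-. Every p18mKO2+ library was above every p18mKO2- library, with replicate 3, 1 of the libraries with transcripts of both sexes, the lowest of its group. The difference was 2.92-fold, or 1.55 ± 0.19 on the log2 scale (SE, edgeR adjusted p = 0.000306). Etv1 (ENSMUSG00000004151, chromosome 12, 38779380 to 38870484, plus strand), its close relative, stood at 32.3, 29.6 and 28.9 CPM in p18mKO2+, against 15.1, 10.7 and 12.9 CPM in p18mKO2-. These groups were also apart, and the log2 change was 1.23 ± 0.16 (edgeR, adjusted p = 0.000454), a 2.34-fold difference. Both calls held under every alternative run, with adjusted p up to 0.00793 for Etv5 and 0.0168 for Etv1.

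Etv4 (ENSMUSG00000017724, chromosome 11, 101769742 to 101785371, minus strand), the third ETS factor of this subfamily, was at 6.74, 5.17 and 2.3 CPM in p18mKO2+, against 2.86, 1.41 and 2.87 CPM in p18mKO2-. Here the groups overlapped through p18mKO2+ replicate 3, and the log2 change of 0.99 ± 0.38 did not pass the test (edgeR, adjusted p = 0.12). Without that library the log2 change was 1.32 and passed (adjusted p = 0.034), as it did without both libraries that held transcripts of both sexes (adjusted p = 0.0476).

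Fgfr3 (ENSMUSG00000054252, chromosome 5, 33721674 to 33737068, plus strand) encodes a receptor that is made at a high level by caudal cortical progenitors and later by astrocytes. It stood at 74.8, 78.9 and 80.5 CPM in E13.5 p18mKO2+, against 323, 250 and 215 CPM in p18mKO2-. The groups were far apart, and the p18mKO2+ libraries differed little among themselves. The log2 change was -1.75 ± 0.40 (edgeR, adjusted p = 0.0127), a 3.36-fold difference. Fgfr2 (ENSMUSG00000030849, chromosome 7, 130162451 to 133123350, minus strand) stood at 94.7, 111 and 73.9 CPM in p18mKO2+, against 131, 146 and 147 CPM in p18mKO2-. Its groups were also apart, by a smaller ratio, with a log2 change of -0.60 ± 0.16 (edgeR, adjusted p = 0.0241), a 1.52-fold difference. Fgfr1 (ENSMUSG00000031565, chromosome 8, 25513654 to 25575718, plus strand) was at 136, 138 and 111 CPM in p18mKO2+, against 142, 126 and 145 CPM in p18mKO2-, and its log2 change of -0.10 had a 95% interval of -0.42 to 0.21.

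The calls of both receptors were lost under several alternatives. Without E13.5 p18mKO2+ replicate 1 the adjusted p was 0.0579 for Fgfr3 and 0.0802 for Fgfr2, with log2 changes of -1.72 and -0.61, and without both libraries that held transcripts of both sexes it was 0.0608 and 0.135. With limma on log2(TPM + 1) it was 0.172 for Fgfr3 and 0.0576 for Fgfr2. With the ribosomal RNA level as a covariate it was 0.0693 and 0.127, and with a covariate for Y-linked genes it was 0.057 and 0.0555, in the same order. The Fgfr2 call was also lost without p18mKO2- replicate 2 (adjusted p = 0.0734), p18mKO2- replicate 3 (adjusted p = 0.0652) or p18mKO2+ replicate 3 (adjusted p = 0.109, edgeR in each case). The deposited length of Fgfr2, which RSEM averages over transcripts by abundance, was 2092 to 2441 bases in E13.5 p18mKO2+ and 1965 to 2047 bases in p18mKO2-. The lengths did not overlap, with a gap from 2047 to 2092 bases. The share of all genes without overlap in length was not counted. Whether the mix of Fgfr2 transcripts differed between these groups can therefore not be said from these values. No test was made of the lengths.

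The feedback inhibitors did not pass the test at E13.5. Dusp6 (ENSMUSG00000019960, chromosome 10, 99263231 to 99267489, plus strand), the cytoplasmic phosphatase of ERK, was at 19.0 and 12.5 CPM in replicates 1 and 2 of p18mKO2+ with replicate 3 between them, against 6.85, 9.06 and 7.25 CPM in p18mKO2-. The groups did not overlap, but the log2 change of 0.95 ± 0.30 had an adjusted p of 0.0611 (edgeR). It passed without E16.5 p18mKO2- replicate 3 (adjusted p = 0.00735), a library outside this comparison that enters through the shared estimate of spread, and without E16.5 p18mKO2- replicate 1 (adjusted p = 0.0479). It also passed with DESeq2 (adjusted p = 0.0255), with no filter on low counts (adjusted p = 0.00326) and with a covariate for Y-linked genes (log2 change 1.31, adjusted p = 0.0309). Spry1 (ENSMUSG00000037211, chromosome 3, 37639947 to 37644598, plus strand), Spry2 (ENSMUSG00000022114, chromosome 14, 105891947 to 105896819, minus strand) and Spry4 (ENSMUSG00000024427, chromosome 18) encode Sprouty proteins, which block signalling between receptor tyrosine kinases and ERK. Their log2 changes were 0.31 (95% interval -0.41 to 1.03), 0.37 (-0.15 to 0.89) and 0.36 (-0.54 to 1.25), with overlapping groups in each case. All 3 intervals include 0, and that of Spry4 also includes a change as large as that of Etv1 (1.23), while those of Spry1 and Spry2 do not. Spry1 was at 14.6, 5.39 and 9.22 CPM in p18mKO2+, against 7.06, 10.3 and 6.26 CPM in p18mKO2-, and its sign rested on replicate 1 of p18mKO2+, without which the log2 change was -0.11.

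**Figure D2:**
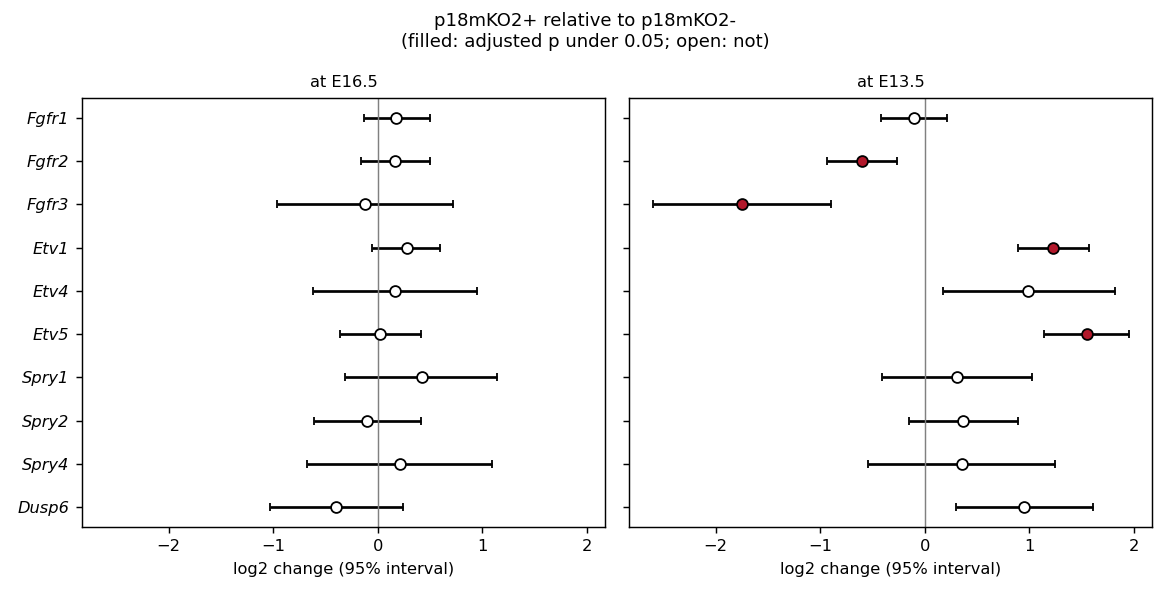
Log2 change in p18mKO2+ relative to p18mKO2- (points, filled where the edgeR adjusted p is under 0.05) with 95% intervals, at E16.5 (left panel) and E13.5 (right panel), for each of the 10 genes. At E13.5 Etv5, Etv1, Fgfr3 and Fgfr2 are filled, at 1.55, 1.23, -1.75 and -0.60, and at E16.5 no gene is.

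Markers of neurons and of dividing cells moved with p18mKO2 status in the same libraries, where 7.29% of all genes were called higher and 3.49% lower. Of 12 neuron markers, 8 were called higher in E13.5 p18mKO2+ and none lower (median log2 change 1.08), and their summed level was 5700 to 6510 CPM in p18mKO2+, against 2500 to 3110 CPM in p18mKO2-. Of 12 markers of dividing cells, 10 were called lower and none higher (median -0.82), with sums of 1690 to 2310 CPM in p18mKO2+, against 3440 to 3590 CPM. Of 11 radial glia markers, 5 were called lower and 1, Ptprz1, higher (median -0.59), with sums of 1860 to 2500 CPM in p18mKO2+, against 2640 to 2920 CPM. No marker of these 3 lists was at 0 in any library. Among markers of ventral telencephalon, 2 of 10 were called higher (Lhx6 and Gad1, genes of inhibitory neurons), and sums were 605 to 839 CPM in p18mKO2+, against 209 to 541 CPM. In the remaining marker lists, calls higher and lower were 2 and 1 of 8 for astrocytes (Gfap and S100b were at 0 in all E13.5 p18mKO2- libraries), 2 and 0 of 7 for the oligodendrocyte lineage, 0 and 2 of 6 for intermediate progenitors and 2 and 0 of 9 for vessels. They were 0 and 2 of 8 for erythroid cells and 0 for microglia, meninges, and cortical hem, choroid plexus and Cajal-Retzius cells. The part of these shifts in the differences of Etv5, Etv1, Fgfr3 and Fgfr2 was not tested.

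**Figure D3:**
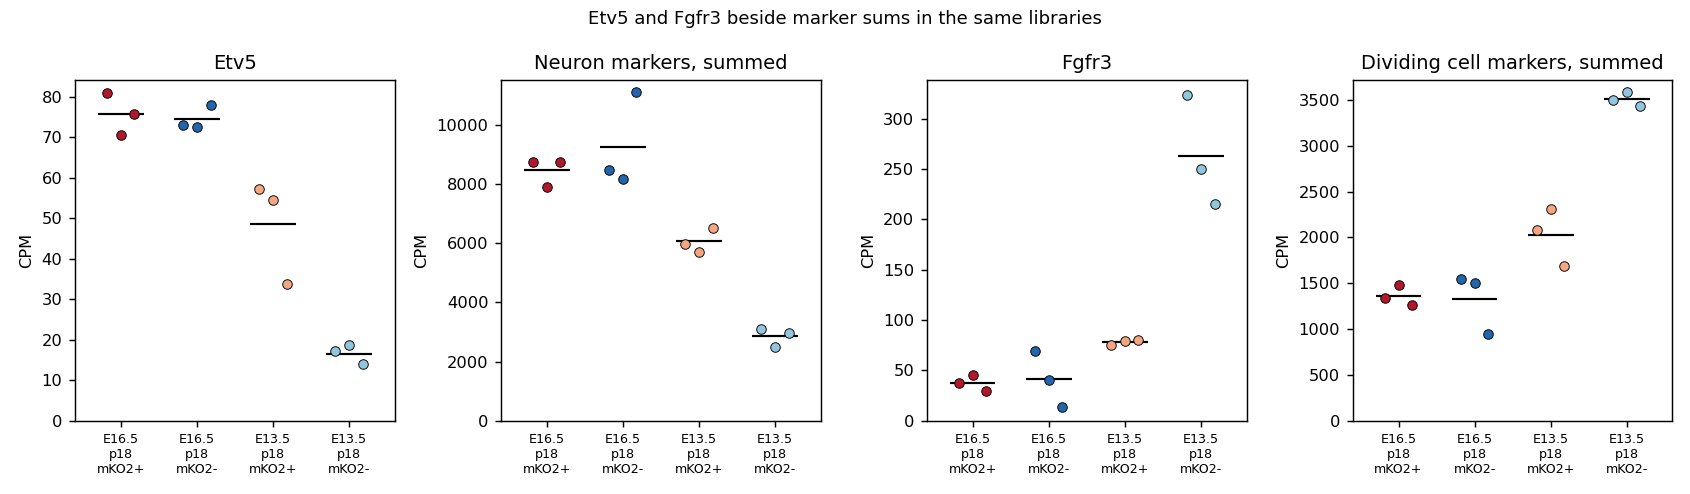
CPM of Etv5 and Fgfr3 beside the summed CPM of 12 neuron markers and of 12 markers of dividing cells in the same 12 libraries (linear axes from 0, points are libraries and lines group means). At E13.5 Etv5 and the neuron sum were both higher in p18mKO2+ than in p18mKO2- without overlap, and Fgfr3 and the dividing-cell sum were both lower.

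The counts in the pathway lists at E13.5 are to be read against the 10.8% of all genes called (7.29% higher and 3.49% lower). Ligand transcripts were scarce: 8 of 18 secreted FGF genes passed the filter, their summed level was 6.54 to 32.5 CPM in p18mKO2+, against 8.13 to 12.9 CPM in p18mKO2-, and none was called. The nearest to a call were Fgf10, with a log2 change of 2.12 ± 1.00 (edgeR, adjusted p = 0.203), and Fgf9, with 2.24 ± 1.06 (adjusted p = 0.204). Fgf8 did not pass the filter, with 26 counts over all 12 libraries. Of 17 receptor partners and heparan sulphate enzymes tested, 2 were called, both higher: Flrt2, a membrane protein of the FLRT family, at 1.00 ± 0.21 (adjusted p = 0.00958) and the receptor docking protein gene Frs3 at 0.85 ± 0.24 (adjusted p = 0.0406). Flrt2 averaged 132 ± 18.4 CPM over the p18mKO2+ libraries, against 66.3 ± 16.6 CPM over p18mKO2- (SD, n = 3 each). The list's median log2 change was 0.38, against 0.01 over all genes.

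Of 26 genes of the RAS-ERK cascade, 3 were called higher and none lower, with a median log2 change of 0.13, where 7.29% of all genes were called higher. They encode adaptors: Gab2 at 1.11 ± 0.23 (edgeR, adjusted p = 0.00711), Shc3, which is made mainly in neurons, at 1.30 ± 0.33 (adjusted p = 0.023) and Grb2 at 0.42 ± 0.11 (adjusted p = 0.0268). Of 12 other feedback inhibitors, 3 were called higher and 1 lower (median 0.43). Spry3, a further Sprouty, averaged 5.62 ± 0.931 CPM in p18mKO2+, against 1.83 ± 0.643 CPM in p18mKO2-, a log2 change of 1.62 ± 0.32 (adjusted p = 0.0059). The MAP kinase phosphatases Dusp4 and Dusp1 changed by 1.42 ± 0.38 (adjusted p = 0.0303) and 0.57 ± 0.15 (adjusted p = 0.0308), and Lrig1, which restrains ERBB receptors, changed by -0.96 ± 0.21 (adjusted p = 0.0106). None of 13 immediate early genes and none of 14 other ETS factors were called. The lowest adjusted p in those lists was 0.0536, for Jun at -0.66 ± 0.20, and 0.0893, for Elk1 at 0.45 ± 0.16. Of 16 other receptor tyrosine kinases, Kit (0.97 ± 0.21, adjusted p = 0.00995) and Erbb4 (1.09 ± 0.27, adjusted p = 0.0196) were called higher.

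The cortical area patterning factors, several of which are known to be graded against rostral FGF signalling, were called in 1 direction. Of 7, 4 were called lower in E13.5 p18mKO2+ and none higher, with a median log2 change of -1.02, where 3.49% of all genes were called lower. Sp8 and Nr2f2 were among those not called. Sp8 averaged 20.8 ± 2.45 CPM in p18mKO2+ and 22.9 ± 15.0 CPM in p18mKO2-, and Nr2f2 averaged 67.9 ± 59.3 and 68.6 ± 31.6 CPM. Nr2f1 (COUP-TFI) averaged 159 ± 46.0 CPM over the p18mKO2+ libraries, against 456 ± 61.5 CPM over p18mKO2- (SD, n = 3 each), and changed by -1.52 ± 0.26 (edgeR, adjusted p = 0.00255). Emx2, a caudal-high homeobox gene, averaged 65.7 ± 9.16 and 133 ± 10.8 CPM in the same order, a log2 change of -1.02 ± 0.16 (adjusted p = 0.00156). Dmrta2 and Dmrt3, doublesex-related factors of dorsomedial progenitors, changed by -1.13 ± 0.26 (adjusted p = 0.0142) and -1.95 ± 0.53 (adjusted p = 0.0314). These factors are made by progenitors, whose markers were lower in the same libraries, and the part of that shift was not tested.

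At E16.5 no member of the set was called between p18mKO2+ and p18mKO2-. None of the 16798 genes was called there either (0%, higher or lower) by edgeR quasi-likelihood, with 426 genes at an unadjusted p under 0.05, and DESeq2 called 16 genes, limma-voom 2 and edgeR without the filter 81. CPM did not overlap for 2 of the 10 genes, Etv1 and Spry1, against 7.95% of all genes. Etv1 was at 50.1, 47.4 and 41.9 CPM in p18mKO2+, against 37.4, 36.3 and 41.5 CPM in p18mKO2-, a log2 change of 0.28 (95% interval -0.05 to 0.60). Spry1 was at 7.05, 9.47 and 6.22 CPM in p18mKO2+, against 5.59, 5.65 and 5.79 CPM in p18mKO2-, a log2 change of 0.42 (-0.31 to 1.14). Both gaps between the groups were narrow, and both intervals include 0.

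For Etv5 the E16.5 libraries bounded the difference tightly. It was at 80.8, 70.5 and 75.6 CPM in p18mKO2+, against 72.9, 72.6 and 77.8 CPM in p18mKO2-, a log2 change of 0.02 with a 95% interval of -0.36 to 0.41. That interval excludes a change of the size measured at E13.5. For Fgfr3 the bound was looser: it was at 37.6, 45.6 and 29.4 CPM in p18mKO2+, against 69.4, 40.2 and 13.1 CPM in p18mKO2-, and the interval ran from -0.96 to 0.72. The log2 change of -1.75 measured at E13.5 lies outside it, although the E13.5 interval (-2.6 to -0.9) overlaps it narrowly. The p18mKO2- libraries spanned the whole range of the p18mKO2+ libraries, and the sign of the log2 change (-0.12) turned when either p18mKO2- replicate 1 (0.51) or p18mKO2+ replicate 3 (0.03) was left out. Fgfr1 and Fgfr2 had log2 changes of 0.18 (-0.13 to 0.50) and 0.17 (-0.16 to 0.50). Etv4 was at 9.11, 10.8 and 13.4 CPM in p18mKO2+, against 9.76, 11.3 and 8.58 CPM in p18mKO2-, with a log2 change of 0.17 (-0.62 to 0.95).

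Dusp6 and Spry2 at E16.5 each had 1 high library in the same place. Dusp6 was at 22.3, 19.9 and 25.7 CPM in p18mKO2+, against 20.3, 21.2 and 47.9 CPM in p18mKO2-, and Spry2 was at 25.5, 26.0 and 34.9 CPM in p18mKO2+, against 25.1, 25.7 and 41.7 CPM. The highest value of both was replicate 3 of p18mKO2-, the library that stood apart from its group and held the most neuron and the fewest dividing-cell marker transcripts. With that library left out, the log2 change of Dusp6 was 0.14 in place of -0.40 and that of Spry2 was 0.19 in place of -0.10. Spry4 had a log2 change of 0.21 (-0.68 to 1.09). Marker sums overlapped at E16.5 for neurons, at 7900 to 8760 CPM in p18mKO2+ and 8180 to 11100 CPM in p18mKO2-, and for dividing cells, at 1260 to 1480 and 948 to 1550 CPM. Sums of the 10 ventral telencephalon markers did not overlap, at 438 to 631 CPM in p18mKO2+, against 230 to 335 CPM in p18mKO2-. No pathway list had a called gene at this stage. Among immediate early genes, Egr3 and Fos had the smallest p-values, with log2 changes of 1.98 ± 0.76 and 2.44 ± 1.13 (edgeR, adjusted p = 1 for both) on 200 and 52 counts over the p18mKO2+ group and 45 and 8 over the p18mKO2- group.

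Whether the p18mKO2 difference changed between stages was tested directly, as the difference at E16.5 minus the difference at E13.5. Etv5 and Etv1 were called, both with a smaller difference at E16.5, so 2 of the 10 genes were called against 2.7% of all genes (0.298% higher and 2.4% lower). The change was -1.52 ± 0.26 for Etv5 (edgeR, adjusted p = 0.00846) and -0.95 ± 0.22 for Etv1 (adjusted p = 0.0347). Etv5 averaged 75.6 ± 5.15 CPM in p18mKO2+ and 74.4 ± 2.89 CPM in p18mKO2- at E16.5, and 48.4 ± 12.8 and 16.6 ± 2.4 CPM at E13.5 (SD, n = 3 each), so p18mKO2- was the genotype with the larger change of level between stages. The Etv5 call held when any 1 library was left out, with adjusted p up to 0.0392. The Etv1 call was lost when any library other than E13.5 p18mKO2- replicate 1 or E13.5 p18mKO2+ replicate 2 was left out (adjusted p 0.0522 to 0.114). On log2(TPM + 1) with limma both calls were lost, at -1.11 for Etv5 (adjusted p = 0.244) and -0.66 for Etv1 (adjusted p = 0.54). Fgfr2 (0.77 ± 0.22, adjusted p = 0.0814), Dusp6 (-1.35 ± 0.42, adjusted p = 0.112) and Fgfr3 (1.63 ± 0.55, adjusted p = 0.143) did not pass. DESeq2 called Fgfr2 (adjusted p = 0.0179) and Dusp6 (adjusted p = 0.0409), and edgeR without the filter called all 3 (adjusted p = 0.0328, 0.00655 and 8.59e-06 for Fgfr2, Dusp6 and Fgfr3). Without E16.5 p18mKO2- replicate 1 the Fgfr3 value was 2.26 (adjusted p = 0.0261), and without E13.5 p18mKO2+ replicate 2 the Fgfr2 value was 0.92 (adjusted p = 0.042). In the pathway lists, Kit (-1.25 ± 0.29, adjusted p = 0.0396) and Emx2 (0.99 ± 0.22, adjusted p = 0.0316) were called. In this test 5 of 12 neuron markers were called lower and 2 of 12 dividing-cell markers were called higher. The median difference was smaller in size at E16.5 than at E13.5 in both lists. It was -0.18 against 1.08 for neuron markers and 0.04 against -0.82 for dividing-cell markers.

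The next comparison asked how the genes changed with stage in labelled-normal tissue, E16.5 against E13.5 within p18mKO2-. All 3 ETS factors, Dusp6 and Spry2 were higher at E16.5, and Fgfr3 and Fgfr2 were lower. Of the 10 genes, 7 were called (5 higher and 2 lower) where 29.8% of all genes were called, 16.4% higher and 13.4% lower, and CPM did not overlap for 8, against 40.4% of all genes. The median size of the log2 change was 1.5 over the 10 genes and 0.51 over all genes. The 7 calls held under every alternative run. This comparison and the p18mKO2 comparison at E13.5 share the 3 E13.5 p18mKO2- libraries, so a low or high value in those libraries enters both.

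Etv5 was at 72.9, 72.6 and 77.8 CPM at E16.5, against 17.2, 18.6 and 13.9 CPM at E13.5, a log2 change of 2.17 ± 0.19 (SE, edgeR adjusted p = 3.88e-06). The groups were 4.49-fold apart with little spread within either. Etv4 changed by 2.05 ± 0.39 (adjusted p = 0.0013), and was at 8.58 to 11.3 CPM at E16.5, against 1.41 to 2.87 CPM at E13.5. Etv1 changed by 1.57 ± 0.16 (adjusted p = 1.16e-05), at 36.3 to 41.5 CPM and 10.7 to 15.1 CPM. All 3 factors of the subfamily were thus higher at the later stage, without overlap. Dusp6 changed by 1.95 ± 0.31 (adjusted p = 0.000357), at 20.3, 21.2 and 47.9 CPM, against 6.85, 9.06 and 7.25 CPM. Spry2 changed by 1.43 ± 0.24 (adjusted p = 0.000598), at 25.1, 25.7 and 41.7 CPM, against 8.57, 11.1 and 14.7 CPM. Both stayed called without the high E16.5 replicate 3.

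The other two Sproutys did not pass. Spry4 was at 3.93 to 5.97 CPM at E16.5 and 1.51 to 4.29 CPM at E13.5, a log2 change of 0.69 (95% interval -0.21 to 1.59). Spry1 was at 5.59 to 5.79 CPM at E16.5 and 6.26 to 10.3 CPM at E13.5, with a log2 change of -0.47 (-1.2 to 0.26) and no overlap. The measured values of Spry1 thus lay on the other side of 0 from those of Spry2, and the difference between the 2 genes was not tested.

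Among the receptors, Fgfr3 was at 69.4, 40.2 and 13.1 CPM at E16.5, against 323, 250 and 215 CPM at E13.5, a log2 change of -2.68 ± 0.41 (edgeR, adjusted p = 0.00026) or 6.42-fold lower. Every E16.5 library was below every E13.5 library, although the E16.5 values themselves were widely spread. Fgfr2 was at 63.1, 73.8 and 61.9 CPM at E16.5, against 131, 146 and 147 CPM at E13.5, a log2 change of -1.09 ± 0.16 (adjusted p = 0.000157). Fgfr1 was at 154, 132 and 104 CPM, against 142, 126 and 145 CPM, a log2 change of -0.08 (-0.40 to 0.24) that became 0.07 without E16.5 replicate 3. In the same comparison 11 of 12 neuron markers were called higher (median 1.55), with sums of 8180 to 11100 CPM at E16.5, against 2500 to 3110 CPM at E13.5. All 12 markers of dividing cells were called lower (median -1.48), with sums of 948 to 1550 CPM, against 3440 to 3590 CPM. Of 11 radial glia markers 7 were called lower and 2 higher. Of all genes, 16.4% were called higher and 13.4% lower in this comparison. The part of these shifts in the stage differences of the 10 genes was not tested.

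**Figure D4:**
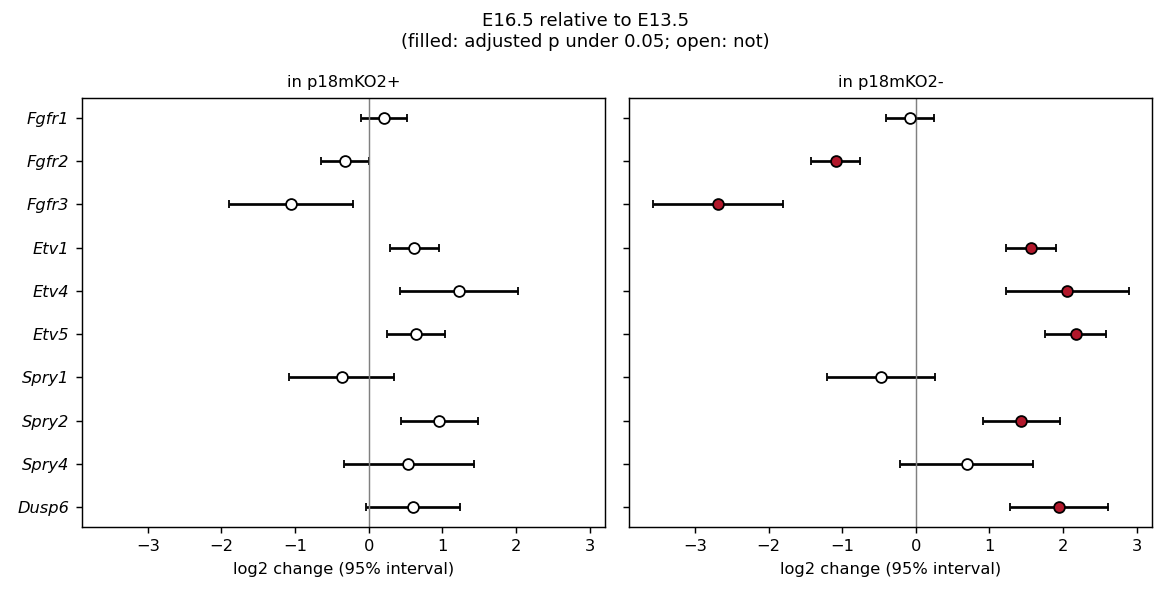
Log2 change at E16.5 relative to E13.5 (points, filled where the edgeR adjusted p is under 0.05) with 95% intervals, within p18mKO2+ (left panel) and p18mKO2- (right panel). In p18mKO2- 7 of the 10 genes are filled, with Etv5 at 2.17 and Fgfr3 at -2.68, and in p18mKO2+ none is, with Etv5 at 0.64 and Fgfr3 at -1.06.

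Within p18mKO2+, none of the 10 genes was called between E16.5 and E13.5 (edgeR quasi-likelihood, where 1.64% of all genes were called, 1.08% higher and 0.554% lower). Of the 10, 5 had an unadjusted p under 0.05, and DESeq2 called 4 of the 10. CPM did not overlap for 7 of the 10, against 26.6% of all genes. The closest were Etv1, at 50.1, 47.4 and 41.9 CPM at E16.5, against 32.3, 29.6 and 28.9 CPM at E13.5 (log2 change 0.62 ± 0.15, edgeR adjusted p = 0.0596), and Spry2, at 25.5, 26.0 and 34.9 CPM, against 14.4, 13.9 and 16.1 CPM (0.96 ± 0.24, adjusted p = 0.0612). Both had E16.5 libraries above all E13.5 libraries. Etv5 had a log2 change of 0.64 ± 0.18 (adjusted p = 0.0954), Etv4 of 1.23 ± 0.37 (adjusted p = 0.122) and Fgfr3 of -1.06 ± 0.39 (adjusted p = 0.214). Without E16.5 p18mKO2- replicate 3, which enters through the shared spread, 3 were called: Spry2 (adjusted p = 0.0205), Etv1 (adjusted p = 0.0364) and Fgfr3 (adjusted p = 0.0185), and without E13.5 p18mKO2- replicate 3 Spry2 was called (adjusted p = 0.0458). Dusp6 (0.60, -0.04 to 1.24), Spry4 (0.54, -0.34 to 1.43), Fgfr1 (0.21, -0.11 to 0.52), Fgfr2 (-0.32, -0.65 to 0.01) and Spry1 (-0.36, -1.08 to 0.35) had intervals that include 0. Spry1 rested on 1 library, E13.5 p18mKO2+ replicate 1, without which its value was 0.08. Neuron marker sums were 7900 to 8760 CPM at E16.5, against 5700 to 6510 CPM at E13.5, in this comparison.

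More genes of the pathway lists were called between stages within p18mKO2- than between genotypes at E13.5, as was so for all genes (29.8% against 10.8%). Within p18mKO2-, 3 of 8 FGF ligands were called. Fgf10, a ligand of the FGFR2b receptor form, was at 3.25 ± 1.51 CPM at E16.5 and 0.195 ± 0.172 CPM at E13.5 (SD, n = 3 each), and 169 and 11 counts lay behind these values. Fgf15, a gene of early progenitors, was at 0.241 ± 0.246 and 6.09 ± 3.43 CPM, and Fgf2, the basic FGF, at 0.483 ± 0.599 and 2.22 ± 0.675 CPM. Their log2 changes were 3.99 ± 1.02 (edgeR, adjusted p = 0.00908), -4.68 ± 1.2 (adjusted p = 0.00921) and -2.21 ± 0.78 (adjusted p = 0.045). Of 17 partners and heparan sulphate enzymes, 6 were called higher and 2 lower. Hs6st2, which adds 6-O sulphates to heparan sulphate, was at 174 ± 14.8 CPM at E16.5 and 44.1 ± 11.4 CPM at E13.5 (1.98 ± 0.19, adjusted p = 8.31e-06), and was also called within p18mKO2+ (1.24 ± 0.19, adjusted p = 0.00454). Hs2st1, which adds 2-O sulphates, changed by -1.07 ± 0.24 (adjusted p = 0.004) and the decoy receptor gene Fgfrl1 by -0.98 ± 0.23 (adjusted p = 0.00592).

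Further along the pathway within p18mKO2-, 5 of 26 RAS-ERK genes were called higher and 1 lower, against 16.4% of all genes higher and 13.4% lower. The smallest p-values were those of Gab2 (1.54 ± 0.23; edgeR, adjusted p = 0.000192) and Grb2 (0.74 ± 0.11, adjusted p = 0.000248). Of 12 other feedback inhibitors, 5 were called higher and 2 lower. Spred2, which blocks RAS activation, changed by 0.72 ± 0.12 (adjusted p = 0.000407), and Lrig1 by -1.83 ± 0.21 (adjusted p = 3.4e-05). Immediate early genes had 1 called higher and 2 lower of 13, with Jun at -0.99 ± 0.20 (adjusted p = 0.00232). Other ETS factors had 4 higher and 2 lower of 14, with the repressor Erf at -1.30 ± 0.30 (adjusted p = 0.00507). Other receptor tyrosine kinases had 8 higher and 3 lower of 16. Met, the receptor for hepatocyte growth factor, was at 11.2 ± 2.46 CPM at E16.5 and 0.747 ± 0.467 CPM at E13.5 (3.90 ± 0.47, adjusted p = 3.97e-05), and Egfr at 13.8 ± 1.92 and 2.31 ± 1.64 CPM (2.57 ± 0.47, adjusted p = 0.000994). Met was also called within p18mKO2+ (3.49 ± 0.45, adjusted p = 0.00165), with Ntrk2, the BDNF receptor (1.12 ± 0.18, adjusted p = 0.00658). All 7 area patterning factors were called lower within p18mKO2- (median -1.42), with sums of 267 to 480 CPM at E16.5, against 904 to 1030 CPM at E13.5.

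**Figure D5:**
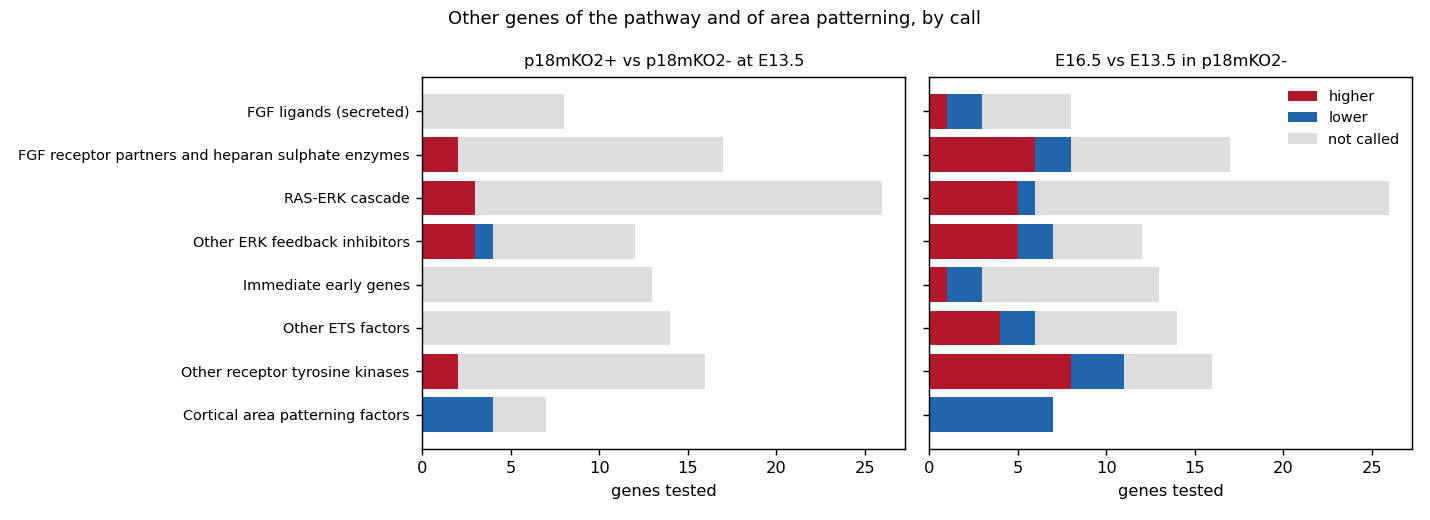
Number of tested genes of each of 8 lists that were called higher, called lower or not called (edgeR adjusted p under 0.05), for p18mKO2+ relative to p18mKO2- at E13.5 (left panel) and E16.5 relative to E13.5 within p18mKO2- (right panel). The 7 area patterning factors have 4 and 7 calls, all lower, and the 16 other receptor tyrosine kinases have 2 calls in the left panel and 11 in the right.

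Across all 4 groups the genes fell into different orders of mean CPM. Etv5, Etv1, Etv4 and Spry4 had the order E16.5 p18mKO2+, E16.5 p18mKO2-, E13.5 p18mKO2+, E13.5 p18mKO2-, from high to low. Every neighbouring pair in that order was free of overlap for Etv1, the last 2 pairs for Etv5, the middle pair for Etv4 and none for Spry4. Fgfr3 and Fgfr2 had their highest mean in E13.5 p18mKO2-, next in E13.5 p18mKO2+, and their 2 E16.5 groups could not be separated. Fgfr1 showed no separated neighbours at all. Likeness between genes was measured as the root mean square difference of log2 CPM, centred per gene, over the 12 libraries, so it has no test and reflects the group levels above all. Among 10223 genes with a mean of at least 5 TPM, Cdh8, a cadherin, was the nearest to Etv5 at 0.21, with Nol4 at 0.22, where Etv5 itself varied by 0.91 around its own mean. For Etv1 the nearest were Sept5 (0.15) and Abca1 (0.18), and for Dusp6 Smarca2 (0.16) and Neto2 (0.18). For Fgfr3 they were Tcf7l1, a repressor of WNT target genes (0.33), and Tgif1 (0.34), where Fgfr3 varied by 1.29. Fgfr2 was nearest to Hnrnpf (0.12) and Snx5 (0.13), and Spry2 to Kcnmb4 (0.20) and Btbd10 (0.21). For the rest the nearest gene was Palmd for Etv4 (0.31), Tmem126b for Spry1 (0.25), Dagla for Spry4 (0.33) and Susd6 for Fgfr1 (0.10). Within the set, Etv1 and Etv5 differed by 0.31 and Spry2 and Dusp6 by 0.32. These pairs were closer to each other than to any other member.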

How the data were processed

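Polyadenylated RNA was sequenced from a directional library kit, per the labels' protocols. Tools and build, per the submitters' processing notes, were RSEM 1.2.31, STAR 2.7.2b, cutadapt 3.4 and GRCm38 (mm10). Annotation release and strand setting: not given in the sources used here. Each deposited table held a gene's expected count, TPM and length, per the file headers. Expected counts, which RSEM shares among multi-mapped reads, were rounded. Of 55487 identifiers, 55227 were found in GENCODE M21 (GRCm38), which gave symbols and positions, and 16798 passed edgeR's filterByExpr. After TMM scaling, edgeR 4.0.16 (R 4.3.3) fitted 4 group means to all 12 libraries by quasi-likelihood (8 residual degrees of freedom, common biological coefficient of variation 0.311). A call is an adjusted p under 0.05 (Benjamini-Hochberg, over all genes tested). The SE is the absolute log2 change over the square root of F. Log2 CPM used a prior count of 2. The fit was also run on counts simulated from each gene's mean and fitted spread, with known changes put in. Those counts held no variation shared among libraries, so that run is no check of the fit under such variation.

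The 10 genes and all gene lists were chosen with earlier results of these data known. Named beyond the 10 are, per list and comparison, up to 4 called genes with the smallest p, or up to 2 if none was called, and the 2 nearest genes by likeness. Other settings tried were DESeq2 1.42.0, RLE size factors, limma 3.58.1 (voom, and trend on log2(TPM + 1)), no filter, a mean CPM of 5 or more, a replicate block, only the groups compared, covariates for ribosomal RNA or for Y-linked genes, and leaving out single libraries or those with transcripts of both sexes. Libraries of a group differed by far more than sampling noise. Figures were drawn with matplotlib 3.10.9.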

Additional observations from a re-analysis of the deposited data

Results flagged for a closer look

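The p18mKO2 difference was not the same at the 2 stages for 2 of the 10 genes and for 2 genes of the pathway and patterning lists, by a test of the difference at E16.5 minus the difference at E13.5 (edgeR quasi-likelihood, Benjamini-Hochberg adjusted p). For Etv5 it was -1.52 (adjusted p = 0.00846), with p18mKO2+ above p18mKO2- in every library at E13.5 and overlapping groups at E16.5. For Etv1 it was -0.95 (adjusted p = 0.0347), with CPM higher in p18mKO2+ without overlap at both stages, by a narrow gap at E16.5. For the receptor tyrosine kinase gene Kit it was -1.25 (adjusted p = 0.0396), and for the patterning factor Emx2 it was 0.99 (adjusted p = 0.0316). In this test 2.7% of all 16798 genes were called. Kit was 1 of 16 other receptor tyrosine kinases tested and Emx2 1 of 7 patterning factors, and the remaining pathway lists had no call. The calls of Kit and Emx2 were not tried under other settings. Over 22 other settings the Etv1 call was lost in 13 and the Etv5 call in 1. At E16.5 Etv1 had no called difference, with 41.9 CPM or more in p18mKO2+ and 41.5 CPM or less in p18mKO2-. Its TPM overlapped there, at 12.56 in p18mKO2+ replicate 3 and 13.28 in p18mKO2- replicate 1. Of all genes, 7.95% had no overlap in CPM between the genotypes at E16.5. Kit was at 51.4 ± 2.89 CPM in E16.5 p18mKO2+ and 62.1 ± 9.68 CPM in E16.5 p18mKO2-, and at 74.0 ± 5.28 CPM in E13.5 p18mKO2+ and 37.7 ± 12.5 CPM in E13.5 p18mKO2- (SD, n = 3 each). Emx2 was at 44.5 ± 7.94, 45.3 ± 5.66, 65.7 ± 9.16 and 133 ± 10.8 CPM in the same order.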

How the results depend on the processing

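Of the 13 calls of single genes over the 5 comparisons, 270 of 297 values under an alternative kept direction and call, 27 lost the call and 0 turned direction. Of the 37 results that were not called, 772 of 838 stayed so in the same direction, 38 became called and 28 turned. Of the 10 genes, the number called for p18mKO2 at E13.5 was 4, and 2 (Etv5 and Etv1) with limma on log2(TPM + 1) or with ribosomal RNA as a covariate, and 2 to 5 with 1 library left out. It was 3 with the covariate for Y-linked genes (Etv5, Etv1 and Dusp6) and 3 without the libraries of both sexes (Etv5, Etv1 and Etv4), with both receptors lost in each. It stayed at 0 for p18mKO2 at E16.5 and at 7 for stage in p18mKO2- under every alternative. For stage in p18mKO2+ it was 0, and 4 with DESeq2, 3 with limma-voom, 1 with log2(TPM + 1), 5 with no filter, 1 with a mean CPM of at least 5, 3 with only the groups compared and 0 to 3 with 1 library left out. For the difference between stages it was 2, and 4 with DESeq2, 0 with log2(TPM + 1), 5 with no filter, 1 without the libraries of both sexes, 1 with a covariate for Y-linked genes and 1 to 3 with 1 library left out. The number called among all genes also moved, from 729 with ribosomal RNA as a covariate to 2666 with DESeq2 for p18mKO2 at E13.5 (1810 as reported), from 76 without E16.5 p18mKO2+ replicate 1 to 970 with no filter for stage in p18mKO2+ (275), from 3626 with log2(TPM + 1) to 5700 with DESeq2 for stage in p18mKO2- (5005), and from 50 with log2(TPM + 1) to 1168 with no filter for the difference between stages (453). The background shares move with these settings.

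The replicate block gave 2369, 0, 547, 5526 and 767 calls among all genes for p18mKO2 at E13.5, p18mKO2 at E16.5, stage in p18mKO2+, stage in p18mKO2- and the difference, against 1810, 0, 275, 5005 and 453 without it. It gave 2 of the 10 (Etv1 and Spry2) for stage in p18mKO2+, where the fit without it gave 0, and 3 for the difference between stages, where Fgfr2 (0.79, edgeR adjusted p = 0.0278) was added to Etv5 and Etv1. It left the member calls of the other comparisons as they were. Same-numbered libraries correlated at -0.07 to 0.28 (median 0.07), over 0.1 in 8 of 18 pairs. Libraries of other numbers correlated at -0.21 to 0.1 (median -0.07), over 0.1 in 0 of 36 pairs. Of the 12 libraries, 10 correlated best with their own number. That is a hint of shared variation from the data and not from the design, so the numbers were not taken as pairs. The deposited TPM ran higher than CPM in p18mKO2+, moving the median log2 change of all genes to 0.14 at E13.5 and 0.23 at E16.5, and changes on that scale are relative to those shifts.

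Directions that turned were all of uncalled results. With log2(TPM + 1), log2 changes were 0.03 for Fgfr1 at E13.5, 0.60 for Fgfr3, 0.19 for Spry2 and 0.28 for Dusp6 at E16.5, and 0.03 for the Spry4 difference between stages. With ribosomal RNA as a covariate they were 0.01 for Fgfr1 at E13.5, 0.25 for Fgfr3 and -0.19 for Spry1 at E16.5, and -0.24 for the Spry1 difference between stages. With the covariate for Y-linked genes they were 0.03 for Spry2 and 0.02 for Dusp6 at E16.5. Fgfr3 at E16.5 was 0.16 with limma-voom, 0.01 with the replicate block and 0.03 without the libraries of both sexes. With 1 library left out, ranges that crossed 0 were -0.11 to 0.60 for Spry1 at E13.5, and at E16.5 -0.54 to 0.51 for Fgfr3, -0.24 to 0.19 for Spry2, -0.59 to 0.14 for Dusp6 and -0.03 to 0.08 for Etv5. For stage they were -0.65 to 0.08 for Spry1 in p18mKO2+ and -0.22 to 0.07 for Fgfr1 in p18mKO2-. For the difference between stages they were -0.54 to 0.21 for Spry4 and -0.18 to 0.53 for Spry1. The cause of these changes was not tested. Spry4 had 29 to 139 counts a library and Etv4 26 to 290, which limits the precision of their values.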
